A study of Mus musculus with 11 samples.

Results

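The coronins are a family of actin regulators, and 6 of their genes, Coro1a, Coro1b, Coro1c, Coro2a, Coro2b and Coro7, were followed here among the 32469 gene symbols counted. They were chosen by family membership after Coro2a had tended lower in treated mice in an earlier look at the same data, so the Coro2a difference chose the set and is given as a description without a test. The libraries came from 11 wild-type C57BL/6 mice inoculated in both flanks with Lewis lung carcinoma (LLC), a transplantable tumor cell line of the same strain. Of these mice, 6 received 200 µg of anti-LAG-3 (clone C9B7W), an antibody that blocks an inhibitory receptor of exhausted T cells, on day 14 and again on day 16 (aLAG3), and 5 were left untreated. Each mouse gave a single library of sorted CD8+ T cells. The gate, as described in the methods, was positive for PD-1 and Ly108 and negative for TIM-3, the phenotype of precursor exhausted cells, and was narrowed to a subset of them by a further marker that is not reported here. Precursor exhausted cells keep the capacity to divide and to give rise to terminally exhausted cells. The mice were females, 8 weeks old at purchase.

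Coronins carry WD repeats that fold into a propeller and bind filamentous actin. Type I coronins (Coro1a, Coro1b, Coro1c and Coro6) bind the Arp2/3 complex, which starts new actin branches, and help cofilin to take old filaments apart. Type II coronins are Coro2a and Coro2b, and Coro7, of type III, has tandem propellers and acts at the Golgi. In T cells Coro1a is needed for survival and migration of naive cells, and its loss leaves mice and people short of T cells. Coro2a is also known as a component of the NCoR corepressor complex, which holds target genes silent in the nucleus. The question put to the counts was how the family is expressed in precursor exhausted cells and whether the paralogs of Coro2a differed between treated and untreated mice.

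The paralogs resemble each other in sequence, so it matters whether their reads can be told apart. The stretch shown is the end of exon 4 of Coro2a, which holds a run as long as any it shares with Coro1a, and the best ungapped match of the same length in 4 paralogs, 5′ to 3′ on the gene's strand in GRCm38. All 90 bases of each are coding. Coro2a is in lower case, and capitals in the other sequences mark bases identical to Coro2a.
Coro2a: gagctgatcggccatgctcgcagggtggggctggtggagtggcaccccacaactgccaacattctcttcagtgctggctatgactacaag
Coro2b: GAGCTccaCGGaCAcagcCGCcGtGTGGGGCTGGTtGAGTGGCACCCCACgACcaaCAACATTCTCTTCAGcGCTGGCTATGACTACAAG
Coro1a: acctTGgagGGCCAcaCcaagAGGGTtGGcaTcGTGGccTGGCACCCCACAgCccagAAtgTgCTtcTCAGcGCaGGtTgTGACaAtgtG
Coro1b: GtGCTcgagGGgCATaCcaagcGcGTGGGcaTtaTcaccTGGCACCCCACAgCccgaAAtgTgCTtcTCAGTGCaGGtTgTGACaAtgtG
Coro1c: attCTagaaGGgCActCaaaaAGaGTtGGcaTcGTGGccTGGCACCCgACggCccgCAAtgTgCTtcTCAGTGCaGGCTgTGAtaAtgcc
The Coro2a bases lie in exon 4 at chr4:46548768-46548857 on the minus strand, and those of Coro2b in exon 4 at chr9:62432357-62432446, also on the minus strand. The matches in Coro1a (chr7:126701689-126701865, minus strand), Coro1b (chr19:4150144-4150453, plus strand) and Coro1c (chr5:113850819-113852246, minus strand) cross from exon 4 to exon 5, so an intron lies within these coordinates. Coro2b was identical to Coro2a at 82.2% of the 90 positions, Coro1a at 58.9%, Coro1b at 57.8% and Coro1c at 55.6%. The best match in Coro7 reached 44.4%. Even in this related stretch the runs of identical bases were short, with 18 bases in Coro2b and 12 in Coro1a.

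Across whole transcripts, the longest identical stretch between Coro2a and a paralog was 20 bases, shared with Coro2b, and that between any pair of coronins was 26 bases, shared by Coro1a and Coro1c. No stretch of 50 bases was common to any pair of coronins. Sequence shared with genes outside the family was more extensive for some members. Coro1b (chr19:4148619-4154035, plus strand) overlaps Ptprcap, a lymphocyte phosphatase-associated gene on the same strand, and 10.9% of its distinct 50-base stretches also occur in Ptprcap, which stood at 631 CPM (counts scaled by library depth) in untreated and 635 in aLAG3 libraries. Coro1b values are therefore uncertain. Coro2a (chr4:46536937-46602202, minus strand) shared 3.66% with Gm16731 on the opposite strand, and Coro7 (chr16:4626133-4679777, minus strand) shared 1.40% with Dnaja3, also opposite. Coro1c (chr5:113842436-113908758, minus strand) shared 2.88% with its antisense gene Gm17122. Whether the counting used strand is not given in the sources used here, so reads from these opposite partners cannot be separated. Coro1a (chr7:126699773-126707787, minus strand) shared no 50-base stretch with another gene.

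The untreated libraries held 317449 to 1271063 counts and the aLAG3 libraries 313524 to 1901374. The libraries carry 3 primer barcodes, with barcode 9 on 3 libraries of each group, barcode 8 on 1 untreated and 3 aLAG3 libraries, and barcode 10 on 1 untreated library. The titles also carry a library code, of which there are 8. Of these codes 1 is shared by both groups, on untreated replicates 2 and 3 and aLAG3 replicate 10, which all differ in primer barcode. Markers of CD8+ T cells summed to 5028 ± 112 CPM (SD, n = 5) in untreated and 5117 ± 183 (n = 6) in aLAG3 libraries. Cd8a (1191 and 1206 CPM), Pdcd1, which encodes PD-1 (716 and 605), and Slamf6, which encodes Ly108 (111 and 97.5), were detected in both groups, whereas Havcr2, which encodes TIM-3, had 0 to 7 reads per library. The 9 myeloid markers, all with reads in both groups, summed to 22.1 to 58.3 CPM in untreated and 23.6 to 150 in aLAG3 libraries. The 150 CPM came from aLAG3 replicate 10, and the next aLAG3 library, replicate 7, was at 81.5. The part of myeloid reads in the coronin values was not tested. The 6 B cell markers summed to 70.5 to 106 and 57.4 to 113 CPM, and the natural killer, stromal, erythroid and CD4+ T cell lists each summed to at most 33.8 CPM in every library. In bulk libraries, fewer cells that express a gene cannot be told apart from less RNA per cell.

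Coro1a was the most abundant coronin in these cells, followed by Coro1b, while Coro1c, Coro2a and Coro7 lay close together and Coro2b was not detected. Levels of different genes were set side by side as CPM per kilobase of the longest annotated transcript. On this scale Coro1a had a mean of 612 over the 11 libraries (552 to 671), and Coro1b, which sits at the leading edge of moving cells, had 68.7 (48.2 to 77.9). Both steps held in every library, with Coro1a above Coro1b and Coro1b above the other coronins in 11 of 11, and these ranges did not overlap. The place of Coro1b keeps the uncertainty from its overlap with Ptprcap. Coro1c, a broadly expressed type I coronin, had 11.0 CPM per kilobase (6.59 to 17.2), Coro2a 10.9 (5.68 to 16.8) and Coro7 9.92 (6.91 to 13.4). Over all libraries the ranges of these 3 neighbours overlapped, and their order depended on the group. In untreated libraries the means per kilobase were 13.5 for Coro2a, 9.65 for Coro7 and 9.35 for Coro1c, and Coro2a was above Coro1c in 5 of 5 libraries and above Coro7 in 4 of 5. In aLAG3 libraries they were 12.4 for Coro1c, 10.1 for Coro7 and 8.63 for Coro2a, and Coro2a was below Coro1c in 5 of 6 libraries and below Coro7 in 5 of 6. The ranges of each pair overlapped within both groups. The place of Coro1c rests on the length used. Divided by its longest coding transcript it averaged 13.7 in untreated and 18.2 in aLAG3 libraries, above Coro2a at 13.5 and 8.63 in both groups. The change of order contains the Coro2a difference that chose the family and is a description. Because it is not stated from which part of the transcripts the counted reads came, division by length is only approximate.

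Read shares, which are not corrected for length, gave the same leading gene. Coro1a took 75.8% ± 2.92 (SD, n = 5) of all coronin reads in untreated and 76.1% ± 1.98 (n = 6) in aLAG3 libraries, and its mean CPM was above that of 98% of the 6949 genes tested. Coro2a took 4.07% ± 0.848 of the coronin reads in untreated and 2.52% ± 0.608 in aLAG3 libraries. The coronins together stood at 1381 ± 86.3 CPM in untreated and 1430 ± 80.9 in aLAG3 libraries.

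Coro2b, known mainly from the nervous system, had 0 reads in all 11 libraries among 8773399 reads in total. At these depths a count of 0 allows up to 1.58 CPM in the deepest and 9.57 in the shallowest library (3 counts), and such limits cover counting error only. Coro6, a type I coronin of muscle and nerve that was not among the members, had 3 reads in all, with 1 in each of aLAG3 replicates 7, 8 and 9. Thus 5 of the 6 members passed the filter on low counts and entered the fit, in which Coro2a is described without a test.

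**Figure D1:**
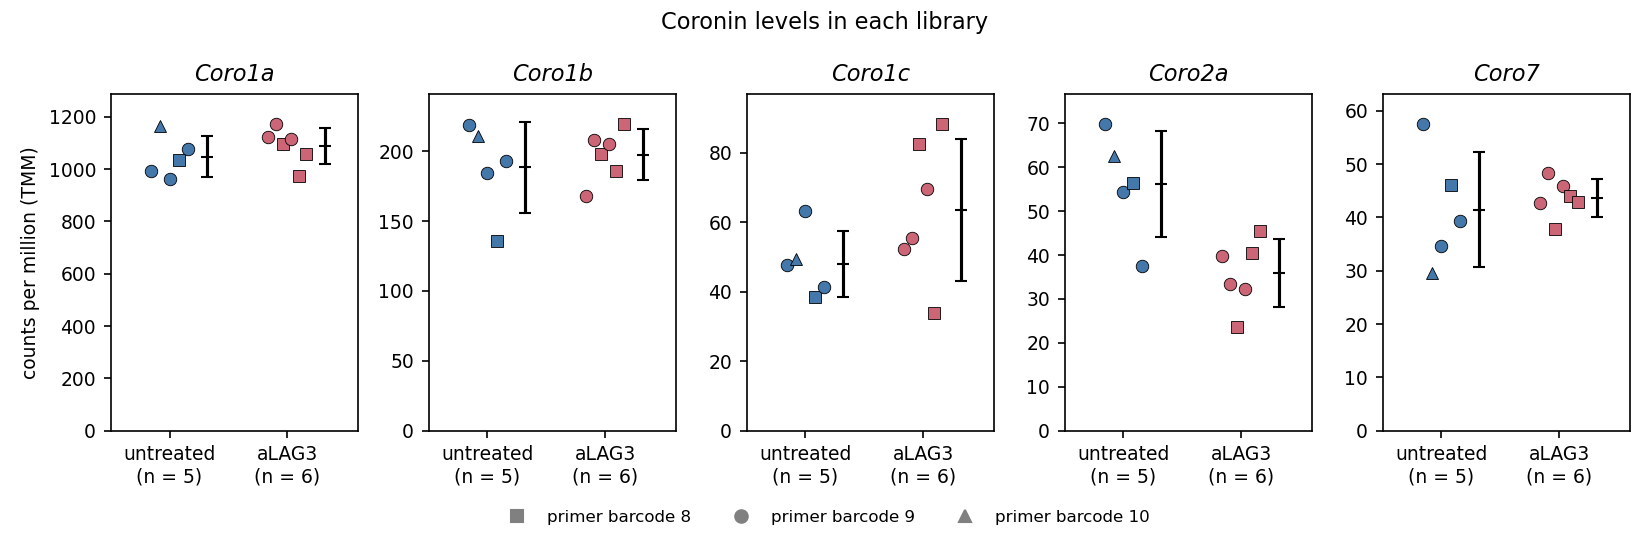
Level of each detected coronin in every library, in TMM-normalized CPM on an axis from 0, with point shape giving the primer barcode and the bar to the right of each group its mean ± SD. The 6 aLAG3 points for Coro2a lie between 23.6 and 45.4 and the 5 untreated points between 37.5 and 69.8 CPM, and the groups overlap for all 5 genes.

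Of the 5 fitted coronins, Coro2a differed most between the groups, which is the reason the family was chosen. It was counted at 69.8, 62.6, 54.3, 56.3 and 37.5 CPM in untreated replicates 1 to 5. In aLAG3 replicates 6 to 11 it was at 39.9, 33.5, 23.6, 32.3, 40.6 and 45.4 CPM. Of the untreated libraries 4 were above every aLAG3 library, and untreated replicate 5 lay within the aLAG3 range, so the groups overlapped. Without that library they would be apart, which held for leaving out no other library. The means were 56.1 ± 12.0 (SD, n = 5) and 35.9 ± 7.72 CPM (n = 6), and the log2 fold change was -0.68 (SE 0.19). Few reads lay behind these values, with 85, 19, 61, 22 and 20 reads in the untreated and 42, 61, 10, 26, 12 and 18 in the aLAG3 libraries. The spread between libraries of a group came to 21.9% of the mean, close to the 20.4% that counting alone gives at these depths. Ordered by log2 fold change, 12 of the 6949 tested genes were lower than Coro2a. Since Coro2a was chosen for tending lower, this rank is a description.

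The Coro2a difference, which chose the set, is given here by primer barcode as a description. The part of barcode in it was not tested. In the 3 untreated libraries with barcode 9 Coro2a averaged 53.9 CPM (37.5 to 69.8) and in the 3 aLAG3 libraries 35.2 (32.3 to 39.9), and these ranges overlapped. With barcode 8 the single untreated library was at 56.3 CPM and the 3 aLAG3 libraries averaged 36.5 (23.6 to 45.4). The barcode 10 library, with no aLAG3 counterpart, was at 62.6 CPM. In the barcode 9 libraries alone the log2 fold change was -0.68. Among the libraries of the shared title code Coro2a was at 62.6 and 54.3 CPM in the untreated and 40.6 in the aLAG3 library. With the title code as a block, a fit in which these 3 libraries alone set the difference, the log2 fold change was -0.48. In the same fit Coro1a, Coro1b and Coro1c turned negative, at -0.11, -0.054 and -0.80, and Coro7 was at 0.40.

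**Figure D2:**
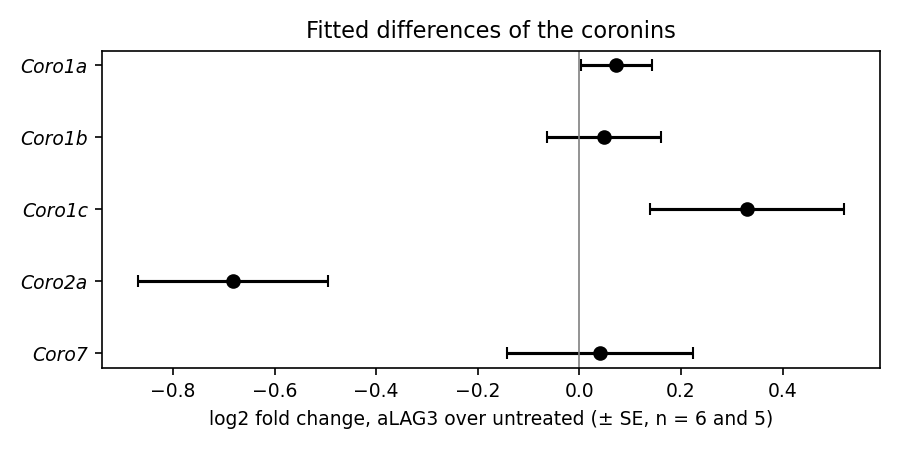
Fitted log2 fold change of each coronin that passed the filter on low counts, aLAG3 over untreated, with bars of 1 standard error. Coro2a, which chose the set, stands at -0.68, and the 4 paralogs lie between 0.041 and 0.33.

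None of the paralogs passed the test. Genes with an adjusted p under 0.05 by edgeR's quasi-likelihood test numbered 0 of 6949 (0%), and 0 also by DESeq2 and by edgeR's likelihood ratio test, against 16 with the title code as a block, none of them a paralog of Coro2a. Without adjustment, a p under 0.05 was found for 258 genes by quasi-likelihood, 163 by DESeq2 and 307 by likelihood ratio. Of these 258 genes 119 were higher and 139 lower, the latter 2.00% of genes tested, and 0 of the 4 paralogs were among the 258. Genes lower in aLAG3 with groups that did not overlap made up 0.259% of those tested, and no coronin was among them.

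Among type I coronins, Coro1a was at 993, 1163, 964, 1035 and 1079 CPM in untreated replicates 1 to 5 and at 1122, 1172, 1095, 1114, 974 and 1056 in aLAG3 replicates 6 to 11. These ranges overlapped almost fully, with means of 1047 ± 78.4 and 1089 ± 67.6 CPM. The log2 fold change of Coro1a was 0.073 (SE 0.070, 95% interval -0.071 to 0.22, adjusted p = 0.9996 by edgeR's quasi-likelihood test). It was the most precisely measured member, since its spread within groups was 6.79% of the mean. Within barcode 9 its groups did not overlap, at 964 to 1079 CPM in untreated and 1114 to 1172 in aLAG3 libraries, as in 5.21% of all genes tested, which were also higher in these aLAG3 libraries without overlap. The log2 fold change there was 0.17. Within barcode 8 the untreated library was at 1035 CPM and the aLAG3 libraries averaged 1042.

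Coro1b was at 218, 211, 184, 136 and 193 CPM in the untreated and at 168, 208, 198, 205, 186 and 219 in the aLAG3 libraries. All aLAG3 libraries but the last lay inside the untreated range. Its log2 fold change was 0.049 (SE 0.11, 95% interval -0.18 to 0.28, adjusted p = 0.9996, edgeR), and the direction turned to -0.042 in the barcode 9 libraries. With a library left out the log2 fold change ranged from -0.029, without untreated replicate 4, to 0.12, without untreated replicate 1.

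Coro1c, a type I coronin implicated in Rac1 trafficking and cell migration, differed most among the paralogs. It was at 47.6, 49.4, 63.2, 38.4 and 41.3 CPM in the untreated and at 52.2, 55.5, 82.6, 69.5, 33.8 and 88.2 in the aLAG3 libraries. The aLAG3 libraries included both the highest value and the lowest, aLAG3 replicate 10. Its log2 fold change was 0.33 (SE 0.19, 95% interval -0.063 to 0.72, adjusted p = 0.9996, edgeR), and in the barcode 9 libraries alone it was 0.16. Its spread within groups, 29.2% of the mean, exceeded the 17.9% from counting.

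Coro7, the type III member, was at 57.5, 29.7, 34.7, 46.1 and 39.4 CPM in the untreated and at 42.7, 48.3, 37.7, 45.9, 44.0 and 42.9 in the aLAG3 libraries. Every aLAG3 value fell inside the untreated range. The log2 fold change was 0.041 (SE 0.18, 95% interval -0.33 to 0.42, adjusted p = 0.9996, edgeR). Its direction was not stable, with 0.25 without untreated replicate 1, -0.0019 with primer barcode as a covariate, and negative values without untreated replicate 2, untreated replicate 3 or aLAG3 replicate 7. Coro7 had about as many reads as Coro2a, 373 against 376 over all libraries, so its precision was similar. The intervals of Coro1c and Coro7 reached up to log2 fold changes of 0.72 and 0.42.

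Setting Coro2a against the other coronins of the same library removes differences in depth. The log2 ratio of its reads to the sum of the other coronins (0.5 counts added to each) was -4.57 ± 0.34 (SD, n = 5) in untreated and -5.27 ± 0.37 (n = 6) in aLAG3 libraries, a difference of -0.71. The untreated values ran from -5.14 to -4.23 and the aLAG3 values from -5.84 to -4.87, so the ranges overlapped through untreated replicate 5. Against single paralogs the difference in log2 ratio was -0.69 with Coro1a, -0.71 with Coro1b, -0.99 with Coro1c and -0.73 with Coro7. All 4 have the sign of the Coro2a difference, which they contain, and all 4 pairs of ranges overlapped. In the libraries of the shared title code, which hold a single aLAG3 library, the ratio to the summed coronins differed by -0.37. No test was made, because these ratios rest on the contrast that chose the family.

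**Figure D3:**
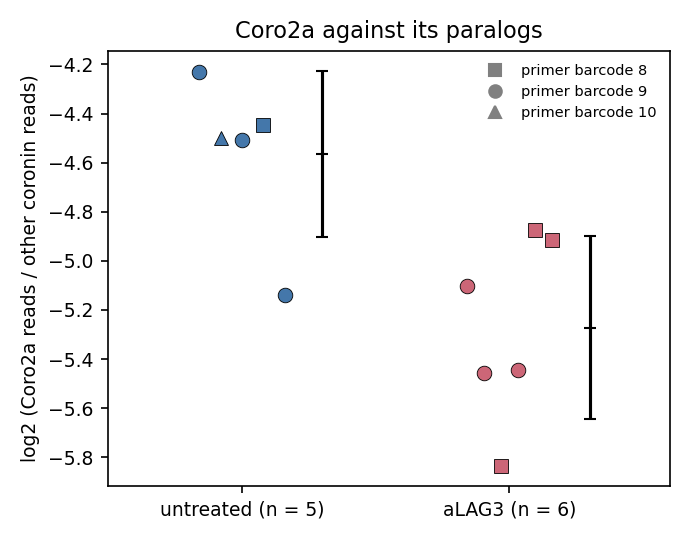
The log2 ratio of Coro2a reads to the summed reads of the other coronins in each library, with point shape giving the primer barcode and bars the mean ± SD of the group. The 5 untreated libraries average -4.57 and the 6 aLAG3 libraries -5.27, and untreated replicate 5 at -5.14 lies among the aLAG3 points.

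After centring log2 CPM on the group means, its Pearson r over the 11 libraries was -0.26 with Coro1a, 0.082 with Coro1b, -0.14 with Coro1c and 0.27 with Coro7. Of 6948 other genes, the 3 most like it were Gucd1 (r = 0.92, Spearman 0.88), the proteasome subunit gene Psmd2 (r = 0.89, Spearman 0.88) and the calcium pump gene Atp2b2 (r = 0.88, Spearman 0.74). For Coro1a they were Atp6ap1, an accessory gene of the vacuolar proton pump (r = 0.92, Spearman 0.75), the splicing kinase gene Prpf4b (r = 0.92, Spearman 0.95) and Gm10177 (r = 0.91, Spearman 0.92). These are the top of a long ranking over few libraries that differ in depth and primer barcode, and are given as a description.

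The partners of the coronins were read from lists of actin genes and of the NCoR complex. Over all 6949 genes the median log2 fold change was 0.0040 and 48.88% of genes were lower in aLAG3 libraries. No gene of any list had an adjusted p under 0.05. All 9 Arp2/3 genes were tested, and they lay in a narrow band, from -0.015 to 0.075 with a median of 0.014, 8 with a positive and 1 with a negative value. Arpc2, a core subunit of the complex, was at 828 ± 38.8 CPM in untreated and 833 ± 25.6 in aLAG3 libraries (log2 fold change 0.0093, SE 0.069). Arpc1b, the form of its subunit that prevails in blood cells, was at 773 ± 49.9 and 777 ± 52.2 CPM (0.014, SE 0.075).

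Activators upstream of Arp2/3 spread more widely. Of 15 genes of the WASP and WAVE nucleation-promoting complexes and cortactins, 11 were tested, 8 with positive and 3 with negative log2 fold changes and a median of 0.084. Wipf1, a partner of WASP, was at 359 ± 20.7 and 373 ± 57.5 CPM (log2 fold change 0.039, SE 0.10), and Hcls1, the cortactin of blood cells, at 248 ± 15.1 and 268 ± 36.6 (0.098, SE 0.10). Of the 11 tested genes of the list, 1 had groups that did not overlap. Over all 6949 genes tested, 33 had groups that did not overlap, higher or lower, and 0.259% were lower without overlap. The gene of the list was Nckap1l, the blood cell subunit of the WAVE complex, named after its values were seen. It was at 57.6 ± 2.20 CPM in untreated and 45.5 ± 6.78 in aLAG3 libraries (log2 fold change -0.37, SE 0.16, adjusted p = 0.9996, edgeR).

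The cofilin list holds genes that act with coronins in filament turnover. In it, 12 of 16 genes were tested, 3 with positive and 9 with negative log2 fold changes (-0.32 to 0.32, median -0.093). Its most abundant genes had values near 0, with Pfn1, which loads actin monomers for growth, at 2582 ± 129 and 2589 ± 146 CPM (0.0016, SE 0.053) and cofilin itself, Cfl1, at 1533 ± 43.0 and 1548 ± 183 (0.026, SE 0.071). All 12 genes for actin, its monomer-binding thymosins, capping and bundling were tested, 5 positive and 7 negative, with a median of -0.028. Actb was at 7644 ± 308 and 7934 ± 652 CPM (0.062, SE 0.042), and the actin-sequestering thymosin gene Tmsb4x at 7289 ± 341 and 7303 ± 553 (0.0020, SE 0.041).

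For the nuclear partners of Coro2a, 5 of 6 NCoR complex genes were tested. All 5 had positive log2 fold changes, from 0.091 to 0.22 with a median of 0.17. Ncor1, the corepressor itself, was at 88.6 ± 7.28 and 95.5 ± 20.3 CPM (0.091, SE 0.15), and Tbl1x, another WD-repeat subunit, at 67.4 ± 9.61 and 81.6 ± 14.5 (0.22, SE 0.14). In all 5 genes the ranges of the groups overlapped, and the 95% intervals held both signs.

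**Figure D4:**
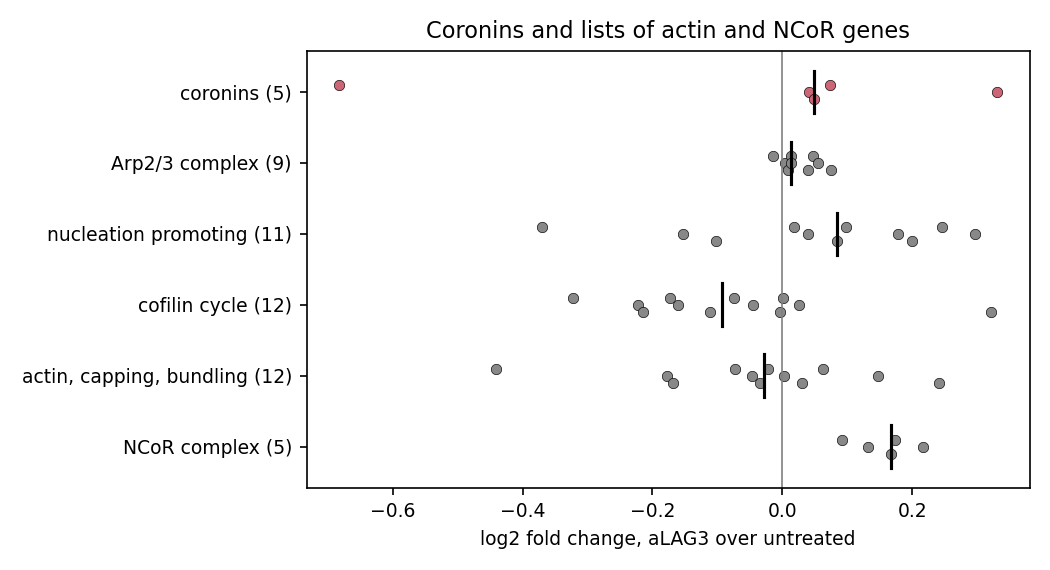
Log2 fold change, aLAG3 over untreated, of the fitted coronins and of the tested genes of 5 lists. The number of genes is in parentheses, with a point for each gene and a vertical line at the median. Coro2a, which chose the set, lies at -0.68, left of every gene of the 5 lists, and the Arp2/3 genes stay between -0.015 and 0.075.

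**Figure D5:**
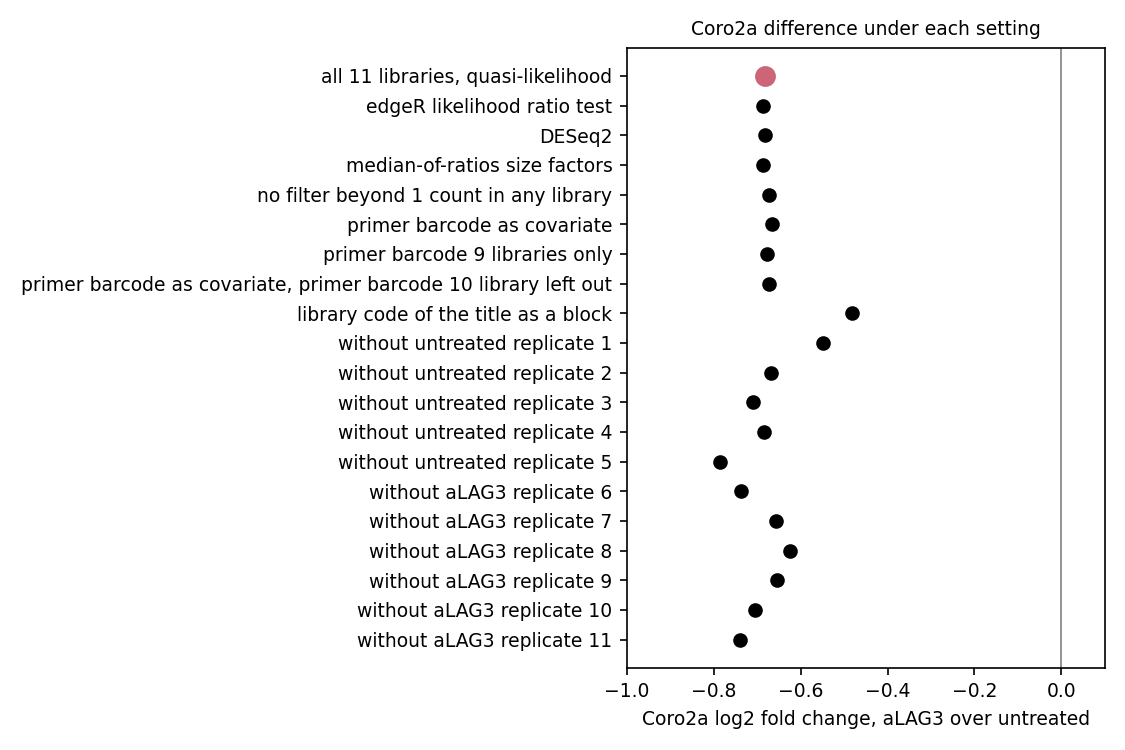
Log2 fold change of Coro2a with the fit described (large red point), under 8 other settings and with each of the 11 libraries left out. The values range from -0.79 without untreated replicate 5 to -0.48 with the library code of the title as a block, and none is above 0. Coro2a was chosen on these same libraries, so the values are a description.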

How the data were processed

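Bulk RNA-seq counts from 11 mice, 1 library each, were analysed by the groups and library numbers in the labels. No number is shared between groups. Per the study's methods, cDNA was made on beads with oligo-dT, template switching and PCR, without molecular identifiers in the counts. The authors trimmed reads with Cutadapt, mapped them to GRCm38 reference RNA with Bowtie2 (versions 4.1 and 2.4.5 in the submitters' processing notes) and deposited raw read counts per gene symbol. How reads matching several genes were counted is not given in the sources used here. The days of tumor excision differ between the methods and the series description.

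Counts were filtered with filterByExpr (17.66 CPM in at least 5 libraries, at least 15 counts in all), scaled by TMM and tested with edgeR 4.0.16's quasi-likelihood test in R 4.3.3, with Benjamini-Hochberg adjustment over 6949 genes and a threshold of 0.05. Standard errors are the absolute log2 fold change over the square root of F. DESeq2 1.42.0, other scalings and filters, primer barcode, title code and left-out libraries were alternatives. Totals of 313524 to 1901374 counts per library limit precision for low genes, and p-values measure the spread between mice. Chi-square per degree of freedom was 1.47 to 2.91 over 55 library pairs, above sampling noise for every pair, so each library was counted as 1 replicate. Transcripts and coordinates are from GENCODE M21, on GRCm38 but of another release than the authors' reference.

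The members and lists were chosen with earlier results of these data known. Named genes are the coronins, the 2 genes of each list with the highest mean CPM, and the 3 genes most correlated with Coro2a and with Coro1a. Outside this rule are markers, genes that overlap a coronin, and Nckap1l, which was named after its values were seen. Some genes that fall under this rule, a list and a marker of the gate are not reported here. Other experiments of the study were not analysed here.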

Additional observations from a re-analysis of the deposited data

How the results depend on the processing

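No paired analysis was possible because the groups share no replicate number. The title code that 3 of their libraries share was used as a block instead. The Coro2a difference in these same libraries chose the set, so its direction under refits of them was largely set beforehand. What follows for Coro2a is a description. The Coro2a log2 fold change kept its direction under all 8 alternatives (-0.69 to -0.48) and with each library left out (-0.79 to -0.55), as did its log2 ratio to the other coronins (-0.77 to -0.37 under 5 alternatives, the latter in the 3 libraries of the title code that both groups share, -0.85 to -0.59 with a library left out). The alternatives that used the title code, and the primer barcode without the barcode 10 library, were chosen after seeing the data, as was division by coding transcript length, which left Coro2a at rank 4 among the coronins over all libraries. By group its rank was 3 in untreated and 5 in aLAG3 libraries, and 4 and 5 by coding length, below Coro1c in both groups. Among the paralogs, Coro1a (0.068 to 0.17) and Coro1c (0.16 to 0.35) stayed positive under 6 alternatives. With the title code as a block, which leaves 2 residual degrees of freedom and rests on those 3 libraries, Coro1a turned to -0.11, Coro1b to -0.054 and Coro1c to -0.80. Coro1b turned to -0.042 in the barcode 9 libraries, and ranged from -0.029, without untreated replicate 4, to 0.12 with a library left out. Coro7 turned to -0.0019 with primer barcode as a covariate, and ranged from -0.065 to 0.25 with a library left out, negative without untreated replicate 2, untreated replicate 3 or aLAG3 replicate 7. The causes were not tested. No paralog of Coro2a reached an adjusted p under 0.05 in the fits run for it. The number of genes that did was 0 in every fit but those with no filter beyond 1 count in any library, which called 7 of 24024 genes, and with the title code as a block, which called 16, and the cause was not tested. At an unadjusted p under 0.05, DESeq2 gave 163 genes, the unfiltered fit 1086, the barcode 9 libraries 425 and the block 485, against 258, and leaving out a library gave 221 to 344. With 10 to 85 reads for Coro2a in a library, depth limits what its values can show.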
